A study of Mus musculus with 24 samples.

Results

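Subcerebral projection neurons, whose axons reach the brainstem and spinal cord, were compared with corticothalamic projection neurons, which send axons to the thalamus, at embryonic day 15 (E15) of the mouse. Both kinds of neuron were purified by fluorescence-activated cell sorting from the cortex of untreated CD1 mice, an outbred strain. The labels list 2 libraries for each group, and the table holds 1 pooled value per group, so no difference at E15 has an SD, an n or a test of its own. Callosal projection neurons of the same stage, which connect the hemispheres, and the same neuron types at E16, E18 and postnatal day 1 (P1) were used for context. Values are FPKM (fragments per kilobase of transcript, scaled by library size), a unit read from the authors' use of Cufflinks because the header names none. Read counts cannot be recovered from FPKM, so the depth of a value is unknown and no counting interval is given.

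The comparison covered every entry with at least 1 FPKM in either of the 2 groups, which were 12859 of the 32310 entries. The entry just inside that limit was Gm9079, whose higher value was 1.00006 FPKM, and the one just outside was Sdr42e1, at 0.999815 FPKM. Differences are subcerebral minus corticothalamic on the scale log2(FPKM + 1), so a positive value means higher in subcerebral neurons. A difference of at least 1 on this scale is called past 2-fold and one of at least 2 past 4-fold. The scale understates differences of low genes. In sorted bulk RNA, fewer cells of a type and less RNA per cell cannot be told apart.

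Subcerebral and corticothalamic neurons both lie in the deep layers of the cortex and share much of their early program. In mice, the zinc finger factors encoded by Fezf2 and Bcl11b drive subcerebral identity, while the T-box factor encoded by Tbr1 drives corticothalamic identity and represses Fezf2. Corepressors of the Groucho family, encoded by the Tle genes, do not bind DNA themselves and are recruited by such factors. Subplate neurons, the earliest-born neurons beneath the cortical plate, share many genes with corticothalamic neurons and also project toward the thalamus.

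The labelled identities were set beside the values of Bcl11b, Bhlhe22, Tle4 and Kitl, and of lists of genes of each neuron type. Earlier results of these data were known when genes and lists were chosen. The values therefore describe the groups and are no independent check. Bcl11b, the gene of the factor CTIP2, stood at 168 FPKM in subcerebral and 97.1 FPKM in corticothalamic neurons, a difference of 0.79, against 6.94 FPKM in callosal neurons. Bhlhe22, a basic helix-loop-helix repressor gene needed for corticospinal axons in mice, stood at 127 FPKM in subcerebral and 12.9 FPKM in corticothalamic neurons. Tle4 and Kitl, both genes of corticothalamic neurons, were at 65.3 and 3.36 FPKM in subcerebral and at 212 and 91.9 FPKM in corticothalamic neurons. Bhlhe22 did not separate subcerebral from callosal neurons at this stage, since callosal neurons had 126 FPKM. The lists were less clear than these genes: 19 of 23 measured corticothalamic genes were below 0, but of 21 measured subcerebral genes 12 were above 0 and 9 below. Bcl11b, which is in both lists, differed by less than 2-fold. The sources used here do not give the markers by which the cells were sorted.

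Most genes were close to equal. The median difference was 0.02, 25 and 75% of the genes lay below -0.11 and 0.15, and the lowest and highest 1% lay beyond -1.30 and 1.03. Past 2-fold, 137 genes were higher in subcerebral neurons (1.07% of those compared) and 278 were lower (2.16%). Every count of list members past 2-fold given below is to be read beside these 2 shares. Past 4-fold, 22 were higher (0.171%) and 42 lower (0.327%). The surplus of lower genes was largest among weakly expressed ones. Where the higher of the 2 values was 1 to 5 FPKM, 32 genes were higher and 103 lower. From 5 to 20 FPKM the counts were 56 and 98, from 20 to 100 FPKM they were 40 and 68, and at 100 FPKM or more there were 9 in each direction. E15 was the stage at which the 2 neuron types differed least in number of genes: at E16, 314 genes of the 13052 that reached 1 FPKM there were higher and 384 lower past 2-fold, at E18 516 and 465 of 13302, and at P1 646 and 560 of 13258. The SD of the difference over genes was 0.41 at E15, 0.53 at E16, 0.62 at E18 and 0.68 at P1.

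**Figure D1:**
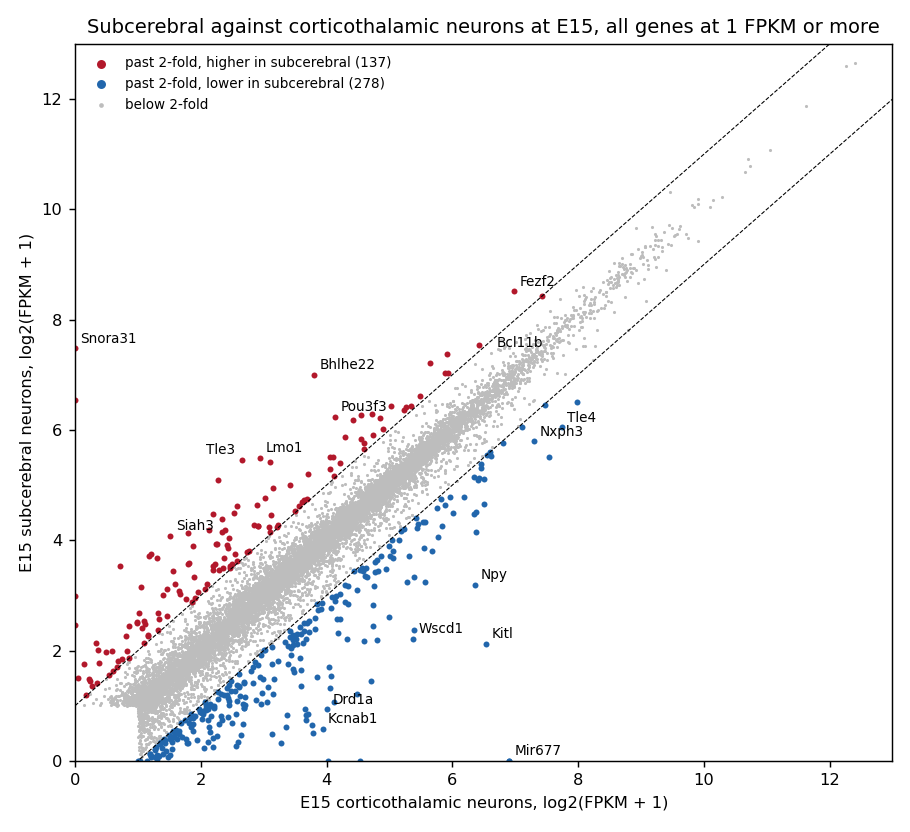
Each point is 1 of the 12859 genes, with its level in corticothalamic neurons on the horizontal axis and in subcerebral neurons on the vertical axis, both as log2(FPKM + 1); dashed lines mark a 2-fold difference on that scale. The 137 genes above the band and the 278 below it are coloured; Bhlhe22 (3.21) and Fezf2 (1.54) stand out above it and Kitl (-4.41) and Tle4 (-1.69) below it.

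Genes for transcription factors and corepressors differed in both directions. Of 53 listed transcription factors of deep-layer neurons, 12 were higher and 5 lower past 2-fold, where 1.07 and 2.16% of all genes compared were, and their median difference was 0.14. Of the 22 genes past 4-fold toward subcerebral neurons, 5 were on this list. The 12 were Bhlhe22 (3.21), Tle3 (2.81), Lmo1 (2.55), Pou3f3 (2.10), Pou3f2 (2.02), Tle1 (1.78), Ldb2 (1.73), Fezf2 (1.54), Pou3f1 (1.36), Etv5 (1.34), Foxp1 (1.10) and Id2 (1.01). The 5 lower ones were Nr4a2 (-2.61), Tle4 (-1.69), Zfpm2 (-1.40), Foxp2 (-1.38) and Lmo3 (-1.31). This list, like the others, was drawn up with earlier results of these data known, so its counts describe it and support nothing.

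Among the factors with an assigned role in deep layers, Fezf2 was the most abundant of the subcerebral genes, at 366 FPKM in subcerebral, 125 FPKM in corticothalamic and 65.9 FPKM in callosal neurons. Tbr1 differed by less than 2-fold, with 223 FPKM in subcerebral and 315 FPKM in corticothalamic neurons (-0.50). Sox5, a SoxD factor that in mice controls the order in which deep-layer neurons differentiate, was at 128 FPKM in subcerebral and 106 FPKM in corticothalamic neurons (0.27). Foxp2, a forkhead factor gene, was at 9.86 FPKM in subcerebral and 27.3 FPKM in corticothalamic neurons. Zfpm2, which encodes a Friend-of-GATA cofactor, was at 26.7 FPKM in subcerebral and 71.8 FPKM in corticothalamic neurons. The LIM-domain partners split: Lmo1 had 44.1 FPKM in subcerebral and 6.67 FPKM in corticothalamic neurons, and Ldb2, whose product binds LIM proteins, had 76.7 and 22.5 FPKM in those groups. Lmo3 was at 33.2 FPKM in subcerebral and 83.9 FPKM in corticothalamic neurons. Tbr1 and Sox5 were named after their values were seen.

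The Groucho genes diverged within the family. Tle3 stood at 43.1 FPKM in subcerebral neurons, 5.30 FPKM in corticothalamic neurons and 89.4 FPKM in callosal neurons. Tle1 stood at 11.03 FPKM in subcerebral, 2.50 FPKM in corticothalamic and 47.2 FPKM in callosal neurons. Tle4 had the reverse order, with 65.3 FPKM in subcerebral, 212 FPKM in corticothalamic and 2.42 FPKM in callosal neurons. Callosal neurons were thus at the Tle3-high end and corticothalamic neurons at the Tle4-high end, and subcerebral neurons held both. The POU-domain genes Pou3f3 and Pou3f2, known in mice for upper-layer neurons, followed the order of Tle3: Pou3f3 was at 74.4 FPKM in subcerebral, 16.5 FPKM in corticothalamic and 144 FPKM in callosal neurons, and Pou3f2 at 14.0, 2.67 and 39.5 FPKM in the same groups.

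Promoter windows are shown for 2 genes past 4-fold toward subcerebral neurons and 2 genes of corticothalamic neurons, so that the opposite members Tle3 and Tle4 can be set side by side. None is shown for Bhlhe22. Each runs from 250 bases before to 50 bases after the annotated start, 5′ to 3′ on the gene's strand, from RefSeq on GRCm38.p6, and capitals mark every CG dinucleotide. Tle3 (chr9:61372116-61372415, plus strand) and Pou3f3 (chr1:42695518-42695817, plus strand) were higher in subcerebral neurons. Tle4 (chr19:14598134-14598433, minus strand, the first of 2 listed starts) and Kitl (chr10:100015571-100015870, plus strand) were lower.
Tle3: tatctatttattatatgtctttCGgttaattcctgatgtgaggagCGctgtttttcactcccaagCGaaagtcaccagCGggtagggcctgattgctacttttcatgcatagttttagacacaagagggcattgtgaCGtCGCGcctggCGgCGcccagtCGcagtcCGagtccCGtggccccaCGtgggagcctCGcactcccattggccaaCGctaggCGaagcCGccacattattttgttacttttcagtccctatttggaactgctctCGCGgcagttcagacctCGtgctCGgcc
Pou3f3: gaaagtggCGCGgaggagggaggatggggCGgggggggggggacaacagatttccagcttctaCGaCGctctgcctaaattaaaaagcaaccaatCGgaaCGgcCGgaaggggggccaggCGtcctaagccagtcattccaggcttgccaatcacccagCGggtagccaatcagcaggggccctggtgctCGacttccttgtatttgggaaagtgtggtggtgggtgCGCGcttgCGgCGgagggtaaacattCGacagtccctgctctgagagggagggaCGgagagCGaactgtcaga
Tle4: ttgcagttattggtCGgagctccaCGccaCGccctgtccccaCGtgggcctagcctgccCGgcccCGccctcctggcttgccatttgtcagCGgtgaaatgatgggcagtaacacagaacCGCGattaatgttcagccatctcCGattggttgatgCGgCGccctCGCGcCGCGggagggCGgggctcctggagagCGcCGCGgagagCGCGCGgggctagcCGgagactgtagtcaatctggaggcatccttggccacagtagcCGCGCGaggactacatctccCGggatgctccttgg
Kitl: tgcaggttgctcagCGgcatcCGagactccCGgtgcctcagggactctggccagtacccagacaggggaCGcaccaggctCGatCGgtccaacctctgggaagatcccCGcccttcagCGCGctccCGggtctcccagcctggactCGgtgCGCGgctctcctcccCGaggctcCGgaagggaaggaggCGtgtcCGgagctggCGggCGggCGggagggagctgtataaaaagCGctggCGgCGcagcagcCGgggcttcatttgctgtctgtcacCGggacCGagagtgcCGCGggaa
These windows held 21 CG for Tle3, 18 for Pou3f3, 28 for Tle4 and 28 for Kitl. The motif searched was CG, which reads the same on both strands. At least 1 CG was found in 94.2% of 27025 promoters of this length. At least 18, the lowest count among the windows shown, was found in 30.1%. That cutoff was taken from these windows, so passing it does not place the genes in a promoter class. A promoter was listed for 76 of the 137 higher genes (55.5%) and 182 of the 278 lower genes (65.5%), fewer than 80%, so a comparison of base composition between the sets was void.

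**Figure D2:**
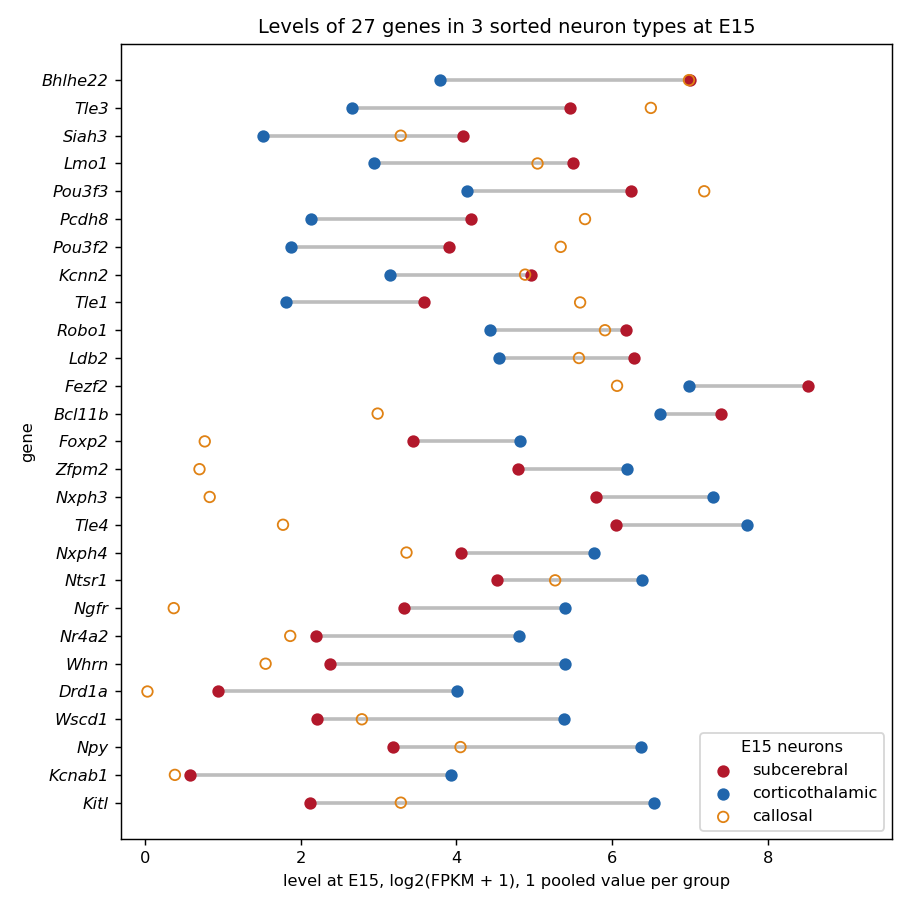
Levels of 27 named genes at E15 as log2(FPKM + 1), 1 pooled value per group, in subcerebral, corticothalamic and callosal neurons; a bar joins the 2 compared groups and genes run from the largest positive difference (Bhlhe22, 3.21) to the largest negative one (Kitl, -4.41). The callosal value of Tle3, Pou3f3, Pcdh8, Pou3f2 and Tle1 lies above both, and that of Tle4, Nxph3, Ngfr, Drd1a and Zfpm2 below both.

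Genes of corticothalamic neurons were lower in subcerebral neurons as a group, but not all of them had separated. Of 23 measured members of the corticothalamic list, 11 were lower past 2-fold and 0 higher, with a median of -0.96. Kitl, the gene of the Kit receptor's ligand, stem cell factor, had the largest difference of any protein-coding gene, -4.41. The gene of that receptor, Kit, was near equal, at 71.4 FPKM in subcerebral and 65.9 FPKM in corticothalamic neurons, against 2.79 FPKM in callosal neurons (Kit was chosen after its values were seen). Nxph3, a neurexophilin gene, stood at 54.5 FPKM in subcerebral and 156 FPKM in corticothalamic neurons (-1.50), and its relative Nxph4 at 15.6 and 53.4 FPKM (-1.71). Ntsr1, the neurotensin receptor gene whose regulatory sequence drives a widely used corticothalamic Cre line, stood at 21.9 FPKM in subcerebral and 82.4 FPKM in corticothalamic neurons (-1.86). Podn, a gene of a small leucine-rich proteoglycan, stood at 3.65 FPKM in subcerebral and 19.0 FPKM in corticothalamic neurons (-2.11). Members that were still close included Syt6, a synaptotagmin gene, with 25.8 FPKM in subcerebral and 28.5 FPKM in corticothalamic neurons (-0.14). Ppp1r1b, which encodes the phosphatase inhibitor DARPP-32, had 82.7 FPKM in subcerebral and 126 FPKM in corticothalamic neurons (-0.60). Nfib, a nuclear factor I gene and the most abundant member, had 411 FPKM in subcerebral and 369 FPKM in corticothalamic neurons (0.16).

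The subcerebral list was mixed at E15. Of 21 measured members, 6 were higher past 2-fold and 3 lower, with a median of 0.34. Besides Bhlhe22, Ldb2 and Fezf2, the higher ones were Chst8, a sulfotransferase gene, at 18.4 FPKM in subcerebral and 6.17 FPKM in corticothalamic neurons, with Adcyap1, the gene of the neuropeptide PACAP, at 1.80 and 0.161 FPKM, and Igfbp4 at 16.7 and 7.59 FPKM. The 3 lower ones were Stac2 at 8.42 FPKM in subcerebral and 37.9 FPKM in corticothalamic neurons, Pcp4, a calmodulin-binding protein gene, at 6.09 and 25.8 FPKM, and Rgs4, a regulator of G-protein signalling, at 3.55 and 10.02 FPKM. Crym, whose product binds thyroid hormone, is in both this list and the corticothalamic one, and was chosen after its values were seen. It was also on the corticothalamic side at E15, with 8.66 FPKM in subcerebral and 16.4 FPKM in corticothalamic neurons (-0.85). Later it differed by -0.48 at E16, 1.45 at E18 and 2.04 at P1.

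Subplate genes had the lowest median difference of the 35 lists. All 12 measured members were below 0, 9 of them past 2-fold, with a median of -1.88. Kcnab1, a beta subunit of voltage-gated potassium channels, had 0.499 FPKM in subcerebral and 14.3 FPKM in corticothalamic neurons (-3.35). Cdh10, a type II cadherin gene, had 0.562 FPKM in subcerebral and 12.6 FPKM in corticothalamic neurons (-3.12), and callosal neurons had 11.9 FPKM. Drd1a, the dopamine D1 receptor gene, had 0.915 FPKM in subcerebral and 15.1 FPKM in corticothalamic neurons (-3.07), against 0.0239 FPKM in callosal neurons. Abca8a, a transporter gene, had 0.252 FPKM in subcerebral and 8.63 FPKM in corticothalamic neurons (-2.94). Nr4a2, an orphan nuclear receptor gene that marks subplate neurons in mice, had 3.58 FPKM in subcerebral and 26.9 FPKM in corticothalamic neurons (-2.61). The members summed to 136 FPKM in subcerebral and 311 FPKM in corticothalamic neurons, and 2 listed genes, Pld5 and Htr1d, were listed at 0 in subcerebral neurons while none was in corticothalamic neurons. Nxph4 and Ngfr stand in both the subplate and the corticothalamic list. The subplate gene Ctgf, chosen after its values were seen, was under 1 FPKM in both groups, at 0.0462 FPKM in subcerebral and 0.485 FPKM in corticothalamic neurons. How far subplate neurons in the corticothalamic sort took part in these values was not tested.

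Genes of proliferating cells and progenitors lay mostly below 0. The medians of the lists of other cells were below 0 too, except those of the vascular and red blood cell lists, with 2 measured members each. Of 25 measured genes of proliferating cells and progenitors, 21 were below 0, 7 were lower past 2-fold and 1 was higher, with a median of -0.60. Eomes, the T-box gene of intermediate progenitors, had 1.11 FPKM in subcerebral and 7.31 FPKM in corticothalamic neurons (-1.98). Fabp7, a radial glial lipid-binding protein gene, had 6.38 FPKM in subcerebral and 18.5 FPKM in corticothalamic neurons (-1.40). Top2a and Mki67, genes of dividing cells, had 0.766 and 0.446 FPKM in subcerebral and 3.50 and 2.02 FPKM in corticothalamic neurons. The 1 higher past 2-fold was Insm1, a zinc finger gene of newborn neurons and their progenitors, at 38.1 FPKM in subcerebral and 15.6 FPKM in corticothalamic neurons (1.24). Nes (0.34), Neurog2 (0.27) and Gadd45g (0.03) were also above 0. The members summed to 186 FPKM in subcerebral and 212 FPKM in corticothalamic neurons. Of 9 measured astrocyte and radial glia genes, 7 were below 0. Their median was -0.69. Past 2-fold, 2 were higher, the glutamate transporter gene Slc1a3 (1.68) and Ptprz1 (1.10), and 4 lower, among them the aldolase gene Aldoc (-1.65). The 9 summed to 201 FPKM in subcerebral and 150 FPKM in corticothalamic neurons. Ptprz1 was the largest part of both sums, at 130 FPKM in subcerebral and 60.3 FPKM in corticothalamic neurons. Without Ptprz1 the sum was higher in corticothalamic neurons. The part of progenitors and glia in the comparison was not tested.

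Interneuron markers were scarce in both groups. Gad1 and Gad2, the genes for GABA synthesis, chosen after their values were seen, had 0.341 and 0.129 FPKM in subcerebral and 1.06 and 0.407 FPKM in corticothalamic neurons. Of 7 measured interneuron genes only the neuropeptide gene Npy was past 2-fold, at 8.13 FPKM in subcerebral, 81.5 FPKM in corticothalamic and 15.6 FPKM in callosal neurons (-3.17). The list summed to 16.2 FPKM in subcerebral and 93.7 FPKM in corticothalamic neurons, most of it from Npy. Its median was -0.71, with 6 of the 7 genes below 0. Oligodendrocyte, microglial, vascular and red blood cell lists had between 1 and 4 measured members and none past 2-fold. The medians of the oligodendrocyte and microglial lists were -0.24 and -0.41, and those of the vascular and red blood cell lists 0.18 and 0.42. Nhlh2 was the only one of 2 measured Cajal-Retzius genes past 2-fold, at 0.945 FPKM in subcerebral and 3.63 FPKM in corticothalamic neurons, and Reln, the other one, was near equal (0.10).

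The callosal values were set beside those of the 2 compared groups for the genes past 2-fold. Of the 137 genes higher in subcerebral than in corticothalamic neurons, the callosal value was above both in 69, between in 51 and below both in 17. Of the 278 lower genes, it was above both in 15, between in 100 and below both in 163, and in 110 it was under 1 FPKM. The same counts were not made over all genes compared, so these describe the 2 sets only. The callosal list itself split: 5 of 25 measured members were higher in subcerebral neurons and 4 lower, with a median of 0.01. The 5 were Tle3, Tle1 and the POU genes Pou3f1, Pou3f2 and Pou3f3. The 4 were Gfra2, a GDNF-family co-receptor gene (-1.27), the plexin gene Plxnd1 (-1.19), the Eph receptor gene Epha3 (-1.08) and the netrin receptor gene Unc5d (-1.03). Cux1, Cux2 and Lhx2, homeobox genes of upper layers, were below 2-fold and on the corticothalamic side, between -0.84 and -0.91.

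Lists of secreted factors and their receptors held differences in both directions. Of 18 measured neurotrophin, GDNF-family and growth factor genes, 1 was higher (Igfbp4) and 5 lower past 2-fold, where 1.07 and 2.16% of all genes compared were, and their median was -0.19. Besides Kitl and Gfra2, the lower ones were Ngfr, the low-affinity neurotrophin receptor gene (9.08 FPKM in subcerebral and 41.02 FPKM in corticothalamic neurons), Igfbp5, and the BDNF receptor gene Ntrk2 (16.9 and 35.5 FPKM in those groups). Of 21 TGF-beta family genes, Gdf10 (-2.33) and Bmp3 (-1.25), both genes of secreted ligands, were lower and none was higher, with a median of -0.18. Of 25 Wnt pathway genes, 14 were above 0 and 11 below, with a median of 0.03, and 2 were higher and 3 lower past 2-fold. The higher ones were Nkd1, a Wnt inhibitor gene, at 1.36, and Rspo3, a gene of a secreted Wnt enhancer, at 53.4 FPKM in subcerebral and 23.1 FPKM in corticothalamic neurons (1.18). The lower ones were the secreted Wnt antagonist gene Sfrp2 (-1.78), the ligand gene Wnt7a (-1.06) and Rspo2 (-1.08), a relative of Rspo3. Wnt7b, the most abundant of the list, had 154 FPKM in subcerebral and 300 FPKM in corticothalamic neurons (-0.96). Of the fibroblast growth factor receptor genes, Fgfr1 had 26.2 FPKM in subcerebral and 7.13 FPKM in corticothalamic neurons, and Fgfr2 had 23.8 and 6.42 FPKM, each a difference of 1.74. Fgfr3 was at 8.71 FPKM in subcerebral and 8.204 FPKM in corticothalamic neurons (0.08). Genes that respond to this pathway did not share a direction, with the feedback inhibitor gene Spry2 at -1.38, Spry1 at 0.72 and Etv5 at 1.34. Fgfr3, Spry1 and Spry2 were chosen after their values were seen.

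Guidance receptors held few large differences. Past 2-fold, 1.07% of all genes compared were higher and 2.16% lower, and a count of 1 or 2 describes single genes and not the family. Robo1, the gene of a Slit receptor, had 71.7 FPKM in subcerebral, 20.5 FPKM in corticothalamic and 59.1 FPKM in callosal neurons (1.76), and was the only one of 19 netrin and slit pathway genes past 2-fold toward subcerebral neurons. The netrin receptor genes Unc5c and Unc5d were lower past 2-fold, and each stayed under 2 FPKM in both groups. Among 25 semaphorin, plexin and neuropilin genes, Nrp1, a semaphorin and VEGF co-receptor gene, was higher (10.1 FPKM in subcerebral and 3.56 FPKM in corticothalamic neurons, 1.28). Sema6a (-1.15) and Plxnd1 were lower. Of 16 ephrin and Eph receptor genes, Epha7 (-1.14) and Epha3 were lower and none was higher.

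Adhesion and matrix genes differed in both directions, where 1.07% of all genes compared were higher and 2.16% lower past 2-fold. Pcdh8, an activity-regulated protocadherin gene, had 17.2 FPKM in subcerebral, 3.39 FPKM in corticothalamic and 49.3 FPKM in callosal neurons (2.05), while Cdh10 and Cdh9 (-1.42) were lower among 19 cadherin genes. Ntm, the IgLON adhesion gene neurotrimin, had 41.6 FPKM in subcerebral and 7.59 FPKM in corticothalamic neurons (2.31). Of 36 synaptic organizers, Slitrk3 (1.44) and C1ql3 (1.03) were higher and 5 lower, with Cadm2 at -1.73 and Nxph4 at -1.71. Of 30 matrix genes and inhibitors, 1 was higher, the protease gene Adamts1 (1.49), and 6 were lower. Those included Podn, the metalloprotease inhibitor gene Timp3 (-1.59) and versican, Vcan, the most abundant member of the list in corticothalamic neurons, at 87.0 FPKM in subcerebral and 177 FPKM in corticothalamic neurons (-1.01).

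Channels and receptors gave a further set of single differences. Of 39 potassium channel genes, 3 were higher and 6 lower past 2-fold, where 1.07 and 2.16% of all genes compared were. In the lists that follow, a count of 1 or 2 describes single genes and not the family. The calcium-activated channel gene Kcnn2 had 30.02 FPKM in subcerebral and 7.87 FPKM in corticothalamic neurons (1.81), and Kcnq5, a gene of the M-current family, had 9.88 and 1.95 FPKM in those groups (1.88). The third was Kcnj11 (1.46), which encodes the pore of the ATP-sensitive potassium channel, at 44.7 FPKM in subcerebral and 15.7 FPKM in corticothalamic neurons. The regulatory subunit of the same channel, the sulfonylurea receptor encoded by Abcc8, had 77.3 FPKM in subcerebral and 25.4 FPKM in corticothalamic neurons (1.57). The 6 lower genes were led by Kcnab1 and Kcnip3 (-1.17). None of 27 sodium, calcium and HCN channel genes was higher and Cacna2d3, a calcium channel subunit gene, was lower (-1.30). Of 15 glutamate receptor genes, 3 were lower and none higher: the metabotropic receptor genes Grm3 (-2.17) and Grm5 (-1.37) and the AMPA receptor gene Gria3 (-1.10). Of 15 GABA and glycine receptor and chloride transport genes, the glycine receptor gene Glra2 was higher (31.1 FPKM in subcerebral and 9.73 FPKM in corticothalamic neurons, 1.58) and 3 were lower, among them Gabra5 (-1.27) and Gabra3 (-1.12). Of 37 synaptic vesicle and release genes, Syt4 (1.34) was higher, and Sv2b (-2.34) and Syn2 (-1.02) were lower.

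The other leading genes had varied functions. Toward subcerebral neurons, Nap1l5, an imprinted gene related to nucleosome assembly proteins, had 33.0 FPKM in subcerebral and 3.85 FPKM in corticothalamic neurons (2.81). Siah3 had 15.9 and 1.85 FPKM in those groups (2.57), and Oma1, a mitochondrial inner membrane protease gene, had 12.4 and 1.31 FPKM (2.54). Itpr1 (2.37), the gene of a calcium release channel of the endoplasmic reticulum, Afap1 (2.28), an actin filament-associated protein gene, and Vav3 (2.11), a guanine nucleotide exchange factor gene, followed. Toward corticothalamic neurons, Whrn, which encodes the PDZ scaffold whirlin, had 4.20 FPKM in subcerebral and 41.05 FPKM in corticothalamic neurons (-3.01), and Wscd1 had 3.64 and 40.6 FPKM (-3.16). Necab1, a neuronal calcium-binding protein gene, had 1.74 FPKM in subcerebral and 25.05 FPKM in corticothalamic neurons (-3.25). Galnt14 (-3.28), a glycosyltransferase gene, Hs3st3b1 (-2.83), a heparan sulfate sulfotransferase gene, Caln1 (-2.86), a calcium-binding protein gene, Pls3 (-2.74), an actin-bundling protein gene, and Cav1 (-2.74), the caveolin gene, were also among the 20 lowest, with Vstm2b (-3.06) and Tmem132b (-2.93).

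Lists of general cell functions held few members past 2-fold. All 22 cholesterol synthesis genes were above 0 and none reached 2-fold, with a median of 0.25 and a range of 0.10 to 0.71. All 75 cytosolic ribosomal protein genes were within 2-fold, with a median of 0.12. Of 11 immediate early genes none was past 2-fold, with a median of 0.32 and Jun highest at 0.91. Of 13 heat shock and stress genes only Gadd45b was past 2-fold (1.62). Of 32 kinesin, tubulin and neurofilament genes only the neurofilament gene Nefm was past 2-fold, at 11.3 FPKM in subcerebral and 4.93 FPKM in corticothalamic neurons (1.05). The sums of the columns were 388489 FPKM in subcerebral and 375911 FPKM in corticothalamic neurons.

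**Figure D3:**
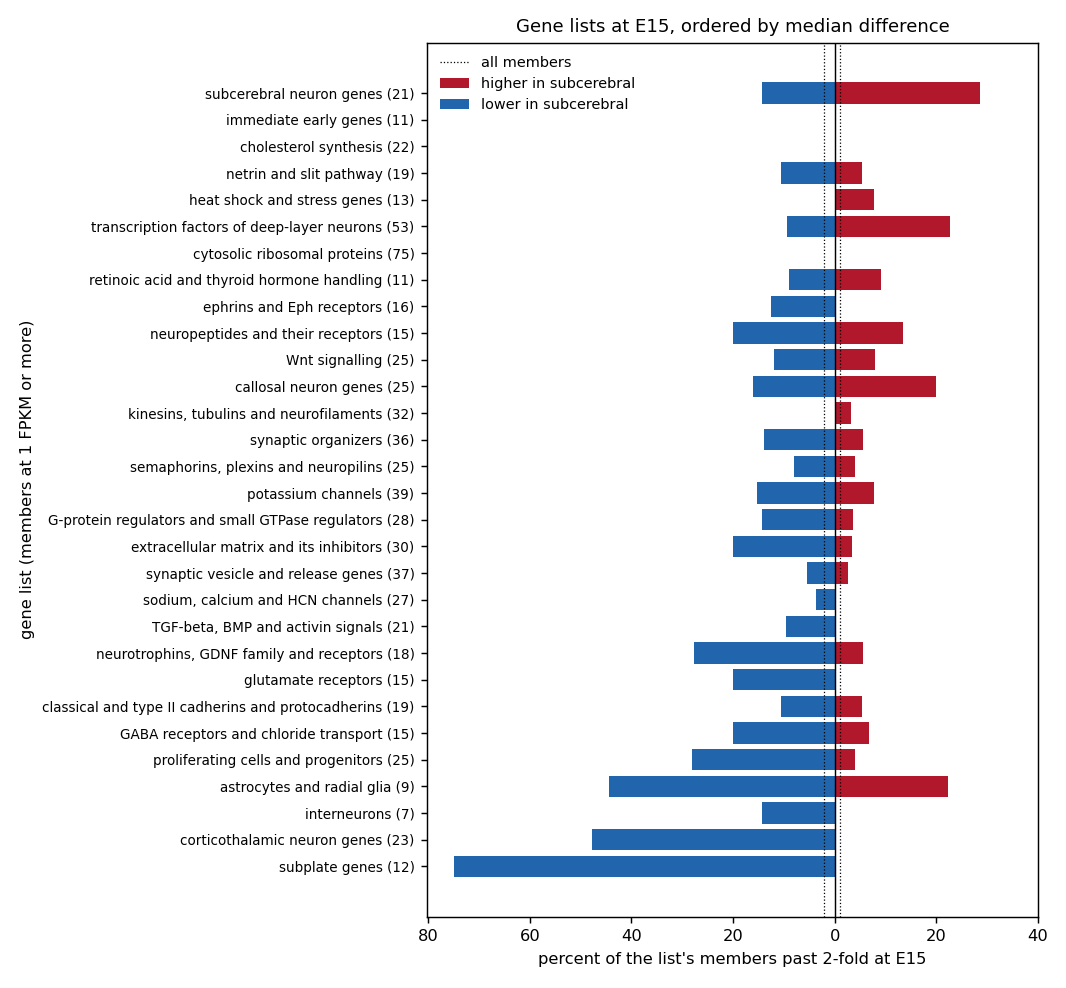
For each gene list with at least 5 measured members, bars give the percent of members past 2-fold at E15, to the right for genes higher and to the left for genes lower in subcerebral neurons, with the number of members in parentheses and lists ordered by median difference. Dotted lines mark the share among all 12859 genes (1.07% higher and 2.16% lower); subplate and corticothalamic genes reach farthest to the left, with 9 of 12 and 11 of 23 members.

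The most extreme values at E15 belonged to entries for short RNAs, in libraries made with poly(A) selection. All 7 entries listed at 0 in one group and at 5 FPKM or more in the other were of this kind: Snora31, Snora15 and Snora21 at 0 in corticothalamic neurons, and Mir677, Mir702, Mir1937b-2 and Snora7a at 0 in subcerebral neurons. Snora31 was listed at 178 FPKM in subcerebral neurons and 0 in corticothalamic neurons at E15, at 144 FPKM and 0 at E16, at 0 in both groups at E18, and at 0 and 217 FPKM at P1. Its groups changed places between the stages. Mir702 and Mir677 were listed at 0 in subcerebral neurons and at the same value, 118 FPKM, in corticothalamic neurons at E15, and at 0 in both groups at all 3 later stages. The table gives a value for the gene entry and none for an arm. The annotated arms, from RefSeq on GRCm38.p6, are shown so that these entries can be identified, with the seed (bases 2 to 8) in capitals.
mmu-miR-702-5p: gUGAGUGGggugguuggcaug
mmu-miR-702-3p: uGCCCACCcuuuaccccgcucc
mmu-miR-677-5p: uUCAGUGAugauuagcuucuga
mmu-miR-677-3p: gAAGCCAGaugccguuccugagaagg
No 2 of these seeds are the same. Mir702 lies on chromosome 5 with a hairpin of 109 bases, and Mir677 on chromosome 10 with a hairpin of 78 bases. Entries of this kind were few, and without them 133 genes were higher and 271 lower past 2-fold.

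Loci known only by an assembly identifier (XLOC) made up 12 of the 137 higher and 10 of the 278 lower genes, beside 797 of all 12859 genes compared. XLOC_004288 had 12.1 FPKM in subcerebral and 1.27 FPKM in corticothalamic neurons (2.53), XLOC_001645 had 16.6 and 2.47 FPKM (2.34) and XLOC_001933 had 5.41 and 1.02 FPKM (1.66). On the other side XLOC_003864 had 1.32 FPKM in subcerebral and 21.3 FPKM in corticothalamic neurons (-3.27), XLOC_004369 had 0.264 and 5.06 FPKM (-2.26) and XLOC_001044 had 2.06 and 10.2 FPKM (-1.87). Whether the counting used strand is not given, so overlapping and antisense transcripts cannot be separated for these loci or for named genes. Atpase6 is uncertain for another reason: the RefSeq table gives this name to a pseudogene of 681 bases on chromosome 1, and it is also a name of a mitochondrially encoded subunit, so reads could be split between near-identical copies. It stood at 10.6 FPKM in subcerebral and 0.646 FPKM in corticothalamic neurons (2.82).

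The later stages were used to ask which E15 differences recurred in libraries that the E15 values do not share. In a limma-trend fit on E16, E18 and P1 alone, with terms for stage and subtype, 3175 of 13773 genes were higher in subcerebral neurons at an adjusted p under 0.05 (23.1%) and 3069 lower (22.3%). The p-values of this fit reflect the evenness of a difference over stages and not the spread between libraries, and the labels do not say whether the 2 libraries of each group came from separate animals. Of the 137 genes higher at E15, 133 could be fitted, and 81 of them (60.9%) passed as higher and 10 (7.52%) as lower. Of the 278 genes lower at E15, 265 could be fitted, and 160 (60.4%) passed as lower and 14 (5.28%) as higher. Without E18, 50 of 131 (38.2%) and 84 of 259 (32.4%) passed in the E15 direction, where 4.17% of 13474 genes passed as higher and 3.48% as lower.

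By the values themselves, 49 of the 137 higher genes stayed past 2-fold in the same direction at all 3 later stages and 16 had the opposite sign at all 3. At E16 alone 61 were past 2-fold in the same direction, at E18 65 and at P1 65, where 1.87, 2.71 and 3.51% of all genes compared at E15 were past 2-fold that way. Of the 278 lower genes, 81 stayed past 2-fold at all 3 stages and 21 had the opposite sign at all 3. The number past 2-fold in the same direction was 135 at E16, 107 at E18 and 99 at P1, beside 2.78, 3.18 and 3.52% of all genes. The counts over all 3 later stages together were not made for all genes compared, so they describe these sets only. Across the 12859 genes, which are not independent, the E15 difference had Pearson correlations of 0.55 with that at E16, 0.39 with E18 and 0.34 with P1 (Spearman 0.48, 0.32 and 0.30). Neighbouring later stages correlated more closely, at 0.82 between E16 and E18 and 0.86 between E18 and P1. Within a stage both values come from that stage's libraries, so stage and collection cannot be told apart.

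Several of the leading genes at E15 were past 2-fold at every later stage too. Whrn differed by -3.01 at E15 and by -3.26, -3.29 and -3.40 at E16, E18 and P1, with a difference of -3.32 ± 0.09 in the fit of the later stages (SE, limma adjusted p = 4.12e-05). Tle3 differed by 2.81 at E15 and by 2.58, 2.29 and 2.73 later (2.53 ± 0.14 SE, limma adjusted p = 0.000148). Bhlhe22 differed by 3.21 at E15 and by 3.95, 3.93 and 4.56 later (4.14 ± 0.15 SE, limma adjusted p = 5.9e-05). Oma1, Afap1, Vav3, Kcnq5, Robo1, Ldb2 and Glra2 also passed as higher, with later differences between 1.65 and 2.86 and limma adjusted p-values between 0.000153 and 0.00187. Of these only Ldb2 missed the threshold without E18 (limma adjusted p = 0.0707). Wscd1 (-3.86), Tmem132b (-4.00), Vstm2b (-2.64), Drd1a (-2.34) and Kcnab1 (-2.80) passed as lower, with limma adjusted p-values between 0.000134 and 0.000999. Other leading genes did not hold as evenly. Caln1 differed by -1.81 at E16, -0.21 at E18 and -0.24 at P1, and Atpase6 by 0.28, 0.15 and 0.26. In the fit without E18, Nap1l5 (0.61), Itpr1 (1.13) and Necab1 (-1.59) missed the threshold (limma adjusted p = 0.287, 0.154 and 0.159).

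Other differences at E15 were small beside what followed. Of 300 genes whose mean difference over the later stages was past 2-fold toward subcerebral neurons, 65 were past 2-fold at E15 and 227 were not, and 8 were past 2-fold in the opposite direction. Of 364 in the other direction, 110 were past 2-fold at E15, 249 were not and 5 were opposite. Syt6 had 25.8 FPKM at E15 and 5.02, 1.86 and 1.20 FPKM at E16, E18 and P1 in subcerebral neurons, and 28.5 FPKM at E15 and 60.5, 78.7 and 90.9 FPKM in corticothalamic neurons. Its level was near equal at E15 and the groups lay far apart from E16 on. Tle4 in corticothalamic neurons stayed between 192 and 212 FPKM over the 4 stages, and in subcerebral neurons it stood at 65.3, 23.0, 11.6 and 11.3 FPKM from E15 to P1. Ppp1r1b differed by -0.60 at E15 and by -3.00, -3.95 and -4.30 later, and Wnt7b by -0.96 and then -2.70, -4.55 and -5.03. Cdh8, a type II cadherin gene, differed by 0.95 at E15 and by 3.28, 3.54 and 3.91 later. Tbr1 differed by -0.50 at E15 and by -2.15, -2.70 and -3.23 later. Syt6, Ppp1r1b and Tbr1 were chosen after their values were seen.

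**Figure D4:**
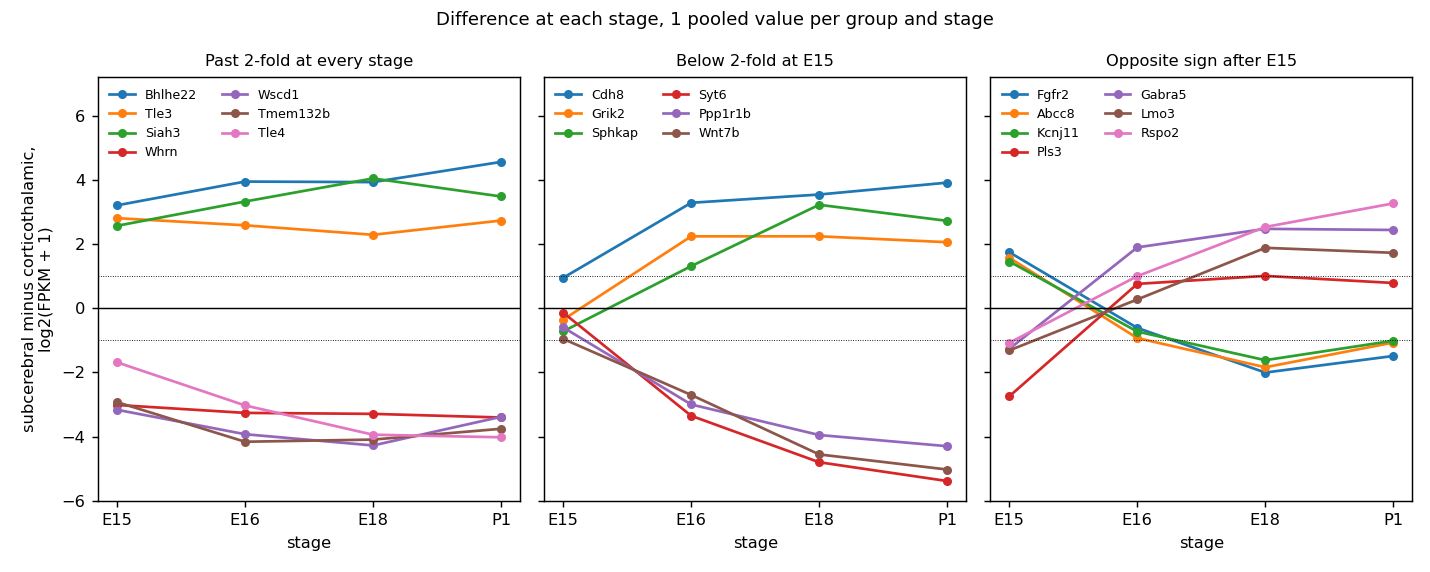
Difference between subcerebral and corticothalamic neurons at E15, E16, E18 and P1 on the log2(FPKM + 1) scale, 1 pooled value per group and stage; dotted lines mark 2-fold. The left panel shows genes past 2-fold at every stage (Whrn between -3.01 and -3.40), the middle panel genes that were below 2-fold at E15 and past it later (Syt6, -0.14 at E15 and -5.38 at P1), and the right panel genes whose sign was opposite after E15 (Gabra5, -1.27 at E15 and 2.44 at P1).

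A fit that set the E15 difference against the mean of the later ones, added after the data were seen, asked which E15 differences departed from the later stages. E15 has 1 pooled column per group, which the fit assumes to vary like the later stages, so its p-values too reflect evenness over stages and not the spread between libraries. Of 13946 genes fitted, 28 departed upward (0.201%) and 58 downward (0.416%) at a limma adjusted p under 0.05. At an unadjusted p under 0.05 there were 2920. Of the 137 genes higher at E15, 6 departed upward and 1 downward, and of the 278 lower genes 7 departed downward and 2 upward. These genes, and several of those named next, were chosen by the same E15 values that the departure uses, so the counts and their p-values are a description. Kitl was farther apart at E15 than later, with later differences of -2.65, -2.06 and -2.40 (departure -2.04, limma adjusted p = 0.0287). In subcerebral neurons Kitl had 3.36 FPKM at E15 and 15.998, 14.7 and 6.79 FPKM later, while corticothalamic neurons had 91.9 FPKM at E15 and 105.7, 64.4 and 40.1 FPKM later. Ngfr was less far apart at E15 (-2.06) than later (-4.61, -5.25 and -5.496; departure 3.06, limma adjusted p = 0.0307).

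Some genes had the opposite sign at E15. Pls3 had 1.48 FPKM in subcerebral and 15.6 FPKM in corticothalamic neurons at E15 (-2.74), and differed by 0.76, 1.01 and 0.79 later (departure -3.59, limma adjusted p = 0.00891). Gabra5, a GABA-A receptor subunit gene, had 1.42 FPKM in subcerebral and 4.81 FPKM in corticothalamic neurons at E15 (-1.27), and differed by 1.90, 2.47 and 2.44 later (departure -3.53, limma adjusted p = 0.0107). Grik2, a kainate receptor gene chosen after its values were seen, differed by -0.36 at E15 and by 2.24, 2.24 and 2.06 later (departure -2.53, limma adjusted p = 0.0067). Pcp4 changed sign only between E16 and E18, with -1.92 at E15, -1.75 at E16, 1.25 at E18 and 1.66 at P1. Its departure missed the threshold (limma adjusted p = 0.425). In the other direction, Fgfr1 and Fgfr2 were at 1.74 at E15 and at -0.97 and -1.49 at P1, and their departures of 2.41 and 3.11 missed the threshold (limma adjusted p = 0.0519 and 0.0539). The subunits of the ATP-sensitive potassium channel had the same pattern: Abcc8 was at 1.57 at E15 and -0.93, -1.84 and -1.07 later, and Kcnj11 at 1.46 and then -0.73, -1.62 and -1.01, with departures of 2.85 and 2.58 that missed the threshold (limma adjusted p = 0.109 and 0.105).

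**Figure D5:**
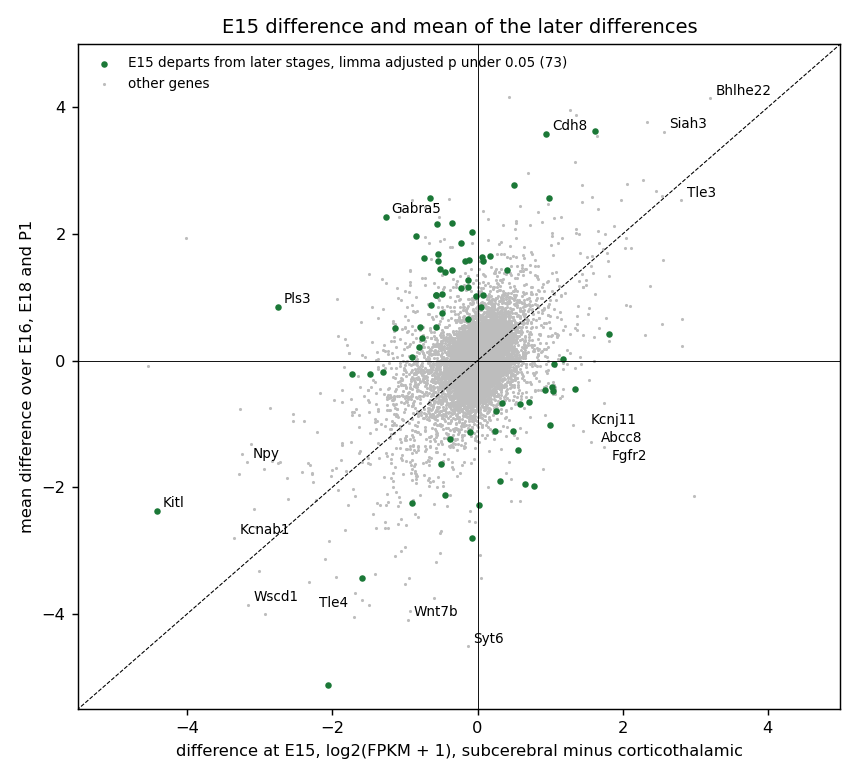
Each point is a gene, with its difference at E15 on the horizontal axis and the mean of its differences at E16, E18 and P1 on the vertical axis, both as log2(FPKM + 1); the dashed line marks equal differences, and 4 points lie outside the axes. The 73 plotted genes whose E15 difference departed from the later ones (limma adjusted p under 0.05) are green; Pls3 and Gabra5 lie upper left and Kitl lower left.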

How the data were processed

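RNA from 24 libraries was measured, 2 for each of 12 groups (3 neuron types at 4 stages); the comparison used the E15 subcerebral and corticothalamic groups. Per the labels' protocols, RNA was recovered after proteinase K digestion and selected for poly(A). The submitters' processing notes name TopHat2, Cufflinks and the mm9 build; no source used here gives versions, annotation, strand or the way libraries were pooled. The deposited table of the authors was read as FPKM from its values, and depth is unknown. Since it holds 1 value per group, the test written for values of each library could not be run, and E15 differences on log2(FPKM + 1) have no p. Genes of at least 1 FPKM in 2 columns or more were fitted with limma 3.58.1 (trend, robust eBayes, statmod 1.5.0, R 4.3.3) on log2(FPKM + 1) over E16, E18 and P1 (9 columns), with Benjamini-Hochberg adjustment, and over 12 columns for the departure of E15. The code was tested on simulated data. Of 998 genes in 35 lists, 993 were found. The 20 largest differences each way, the markers, list leaders, entries listed at 0 and those departing later were named; genes named outside this rule were chosen after their values were seen. The members and lists were chosen with earlier results of these data known. Pseudocounts, filters, scalings and leaving out stages were tried. Promoters and miRNAs came from RefSeq tables of GRCm38.p6, matched by symbol.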

Additional observations from a re-analysis of the deposited data

Results flagged for a closer look

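For 10 genes past 2-fold at E15, the difference had the opposite sign at each of the 3 later stages and a later mean past 2-fold. Higher in subcerebral neurons at E15 were Fgfr2 (1.74), Abcc8 (1.57), Kcnj11 (1.46) and Slc44a5 (1.31), a choline transporter-like gene. Lower were the cation channel gene Trpc4 (-1.50), Lmo3 (-1.31), Gabra5 (-1.27), XLOC_003074 (-1.26), Rspo2 (-1.08) and Hs6st1 (-1.004), a heparan sulfate sulfotransferase gene. These genes were chosen by the same E15 and later values that the fit of E15 against the later stages uses. That fit therefore cannot test them. Its departures of -3.53 for Gabra5, 3.11 for Fgfr2 and 2.85 for Abcc8 are a description only. XLOC_003074 had 0.0291 FPKM in subcerebral and 1.46 FPKM in corticothalamic neurons at E15, close to the limit of 1 FPKM.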

How the results depend on the processing

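The counts past 2-fold at E15 depended on the pseudocount. A pseudocount of 0.1 gave 221 higher and 494 lower genes and a pseudocount of 5 gave 64 and 87, in place of 137 and 278; a larger pseudocount shrinks differences of low genes by construction. With the limit at 5 FPKM, 175 genes were lower, since fewer genes were compared, and the higher count stayed within 1.5 times. The share higher among genes past 2-fold was 33% and became 42.4% with a pseudocount of 5, 32.2% with median-ratio scaling and 34.7% with quantile normalization. Those scalings moved the median of all genes by less than 0.1. No named gene past 2-fold reversed. Of 249 named genes compared at E15, 68 were no longer past 2-fold with a pseudocount of 5, 1 with median-ratio scaling and 6 with quantile normalization, and 33 came past it with a pseudocount of 0.1. With the limit at 5 FPKM, 9 of 33 list medians moved by more than 0.2, and of 35 medians 6 moved with a pseudocount of 0.1 and 7 with one of 5; near 0, the medians of ephrins, kinesins and neuropeptides changed sign with the limit at 5 FPKM, and that of kinesins with quantile normalization. In the fit of the later stages, leaving out E18 gave 562 higher and 469 lower genes in place of 3175 and 3069, and leaving out P1 gave 2017 lower. Leaving out E16, which removes as many columns, gave 3166 and 3023, and the cause of the lower counts was not tested. No paired analysis was possible because the table holds 1 pooled column per group, and for the same reason no replicate could be left out. Unknown depth and 1 value per group limit every E15 difference.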

Other observations

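Some genes outside the lists departed from the later stages at E15, named here after their values were seen. They were chosen by the same E15 values that the departure uses, so the p-values are a description and support nothing. The p-values reflect evenness over stages, and E15 has 1 pooled column per group. Ndn, the imprinted gene of the growth suppressor necdin, had 89.8 FPKM in subcerebral and 252 FPKM in corticothalamic neurons (-1.48), against differences between -0.10 and -0.27 later (limma adjusted p of the departure = 0.0312). Dll1, a Notch ligand gene, had 35.1 FPKM in subcerebral and 16.4 FPKM in corticothalamic neurons (1.05), with later differences between -0.14 and 0.09 (limma adjusted p = 0.0381). Alg13, a gene of protein N-glycosylation, had 17.2 FPKM in subcerebral and 4.20 FPKM in corticothalamic neurons (1.81), with later differences between 0.29 and 0.56 (limma adjusted p = 0.0437). Ablim3, an actin-binding LIM protein gene, had 9.83 FPKM in subcerebral and 22.9 FPKM in corticothalamic neurons (-1.14), with later differences between 0.40 and 0.60 (limma adjusted p = 0.00976). Prex1, a Rac activator gene, had 18.02 FPKM in subcerebral and 56.1 FPKM in corticothalamic neurons (-1.59) and differed more at the later stages, between -3.07 and -3.74 (limma adjusted p = 0.0375).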
